A study of Rattus norvegicus with 16 samples.

Results

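Immediate early genes are switched on within minutes of a stimulus, without the need for new protein, and the activity-induced genes are those of them that neurons transcribe when they fire. The 32 genes described here were taken by symbol from this family and kept where their mean level over all libraries of a brain region was at least 1 FPKM (a measure of expression in which the fragments of a gene are scaled by its length and by the sequenced total of the library). A symbol listed at several loci was read at the locus with the highest mean. In hippocampus 31 of the 32 genes passed, among 11385 loci of 18087 that reached this level, and in hypothalamus 29 passed, among 11498 of 17762. Fosb was not analysed here. In hypothalamus Egr2 and Dusp5 lay under the limit, at means of 0.633 and 0.830 FPKM, and Atf3 and Maff lay just above it, at 1.23 and 1.26 FPKM. In hippocampus the lowest gene that passed was Atf3, at 1.39 FPKM.

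The samples came from male Sprague Dawley rats, an outbred laboratory strain. One group received no treatment (control) and the other was given fructose for 6 weeks, and messenger RNA of hippocampus and of hypothalamus was sequenced from both. The labels list 16 samples in 4 groups, and the tables hold 15 libraries: 4 control and 4 fructose libraries of hippocampus, and 4 control and 3 fructose libraries of hypothalamus. The dose and route of fructose, the age of the rats and the time of day or handling before the tissue was taken are not given in the sources used here. The labels do not say that each sample is a separate rat, so p-values measure only the spread between these samples, which may be technical.

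Neuronal firing lets calcium enter through NMDA receptors and voltage-gated channels. Calcium and the MAP kinase cascade then activate the transcription factors CREB and SRF, which bind the cAMP response element and the CArG box in front of immediate early genes. Many of the products are transcription factors themselves (the Fos, Jun, Egr and Nr4a families), and others act at the synapse (Arc, Homer1) or switch the signal off (Dusp5, Dusp6, Rgs2). Some members respond chiefly to neuronal activity and others to growth factors, injury and cell stress in most tissues. The genes were divided on that ground into a neuronal activity class of 17 (Fos, Fosb, Junb, Egr1, Egr2, Egr3, Egr4, Arc, Npas4, Nr4a1, Nr4a2, Nr4a3, Homer1, Dusp5, Dusp6, Sik1 and Rgs2) and a general stress class of 15 (Fosl2, Jun, Jund, Ier2, Ier3, Ier5, Btg2, Gadd45b, Atf3, Klf6, Klf10, Cyr61, Trib1, Csrnp1 and Maff).

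The promoters were searched for the letters that CREB, SRF and other factors of this pathway bind. RefSeq promoter sequences of the rat build GRCr8, from 250 bases before to 50 bases after the start of transcription, were matched for 22 of the 32 genes, with Cyr61 under its newer symbol Ccn1. The other 10 were Fos, Arc, Egr3, Nr4a3, Jun, Atf3, Ier3, Csrnp1, Klf10 and Trib1. The 250 bases before the start are printed for 6 of them. Junb, Nr4a1, Ier2, Maff and Cyr61 are shown because the hypothalamus values below turn on them, and Egr2 because it shows the CArG box. Each runs 5′ to 3′ on the gene's strand, with every searched motif in capitals:
Junb (chr19:40080876-40081125, plus strand): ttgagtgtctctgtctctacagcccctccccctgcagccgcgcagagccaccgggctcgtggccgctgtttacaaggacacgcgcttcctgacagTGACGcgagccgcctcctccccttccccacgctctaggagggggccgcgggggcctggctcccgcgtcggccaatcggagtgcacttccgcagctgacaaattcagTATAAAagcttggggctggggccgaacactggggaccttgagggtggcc
Nr4a1 (chr7:134259888-134260137, plus strand): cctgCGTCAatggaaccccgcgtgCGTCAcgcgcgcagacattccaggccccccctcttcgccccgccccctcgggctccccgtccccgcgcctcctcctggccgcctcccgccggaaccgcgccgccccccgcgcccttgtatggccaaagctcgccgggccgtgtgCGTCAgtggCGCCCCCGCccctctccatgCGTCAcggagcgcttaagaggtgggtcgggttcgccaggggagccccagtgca
Egr2 (chr20:21054442-21054691, minus strand): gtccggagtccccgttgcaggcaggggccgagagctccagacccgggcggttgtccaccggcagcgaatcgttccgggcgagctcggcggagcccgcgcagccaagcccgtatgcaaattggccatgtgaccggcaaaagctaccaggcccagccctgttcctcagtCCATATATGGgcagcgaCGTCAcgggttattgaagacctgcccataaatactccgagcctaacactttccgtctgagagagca
Ier2 (chr19:40399123-40399372, plus strand): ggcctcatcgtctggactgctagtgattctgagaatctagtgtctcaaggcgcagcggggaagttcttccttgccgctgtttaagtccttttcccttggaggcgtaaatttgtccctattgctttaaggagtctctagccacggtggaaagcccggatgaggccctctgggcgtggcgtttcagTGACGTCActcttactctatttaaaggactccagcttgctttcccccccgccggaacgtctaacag
Maff (chr7:112792537-112792786, plus strand): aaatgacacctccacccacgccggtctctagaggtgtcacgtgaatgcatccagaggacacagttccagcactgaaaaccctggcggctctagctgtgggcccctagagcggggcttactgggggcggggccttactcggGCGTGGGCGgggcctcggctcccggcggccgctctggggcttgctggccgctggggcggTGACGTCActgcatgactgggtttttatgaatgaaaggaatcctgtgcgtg
Cyr61 (chr2:237225690-237225939, minus strand): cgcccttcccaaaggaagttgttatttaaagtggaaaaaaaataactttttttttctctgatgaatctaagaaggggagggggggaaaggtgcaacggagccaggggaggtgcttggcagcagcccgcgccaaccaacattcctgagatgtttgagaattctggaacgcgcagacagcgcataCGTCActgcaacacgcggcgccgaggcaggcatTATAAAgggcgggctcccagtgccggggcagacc
The motifs were searched on both strands of the full 300 bases. The whole cAMP response element, TGACGTCA, was in 4 of the 22 promoters (18.2%), those of Jund, Ier2, Btg2 and Maff, against 1.8% of all 33469 promoters of the table. All 4 belong to the general stress class, where 4 of 9 matched promoters held it, against 0 of 13 in the neuronal activity class, a count without Fos and Arc. Its core, TGACG, which every whole element also contains, was in 15 of the 22 (68.2%) against 21.2% of all promoters. Nr4a1 has 4 such cores, beginning at positions -246, -226, -82 and -53 relative to the start, whereas Ier2 and Maff carry the whole element at -66 and -51. The CArG box was in 4 promoters (18.2% against 1.6%), those of Egr1, Egr2, Dusp5 and Klf6. The site of the Egr factors, GCGNGGGCG, was in 7 (31.8% against 5.0%), and TATAAA in 5 (22.7% against 14.2%), including Junb and Cyr61. The letters TGANTCA, bound by Fos and Jun dimers as AP-1, were in 0 of the 22 windows and in 7.3% of all. The members' promoters had a median of 64.7% G and C against 51.7% for all, and the part of base composition in these shares was not tested. The windows of Npas4 and Dusp6 held none of the searched letters. A match describes the letters only.

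In each region the libraries numbered 1, control and fructose alike, were unlike the others. Their log2 values across loci had r = 0.985 with each other in hippocampus and 0.84 to 0.896 with the rest, against 0.934 to 0.979 among the rest, and the same values in hypothalamus were 0.98, 0.88 to 0.909 and 0.956 to 0.979. Summed over loci, the FPKM per library ranged from 353703 to 402099 in hippocampus and from 435105 to 492778 in hypothalamus. The depth in reads is unknown. The summed level of 9 hypothalamic genes, among them Hcrt, Pmch, Avp and Oxt, was 3315 to 8911 FPKM in hypothalamus and 3.80 to 28.6 FPKM in hippocampus. A list of 6 hippocampal genes set the tissues apart far less. It summed to 109.8 to 162.5 FPKM in hippocampus, where 5 of the 6 are listed, and to 58.9 to 98.6 FPKM in hypothalamus.

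In the control libraries most neuronal activity genes stood higher in hippocampus than in hypothalamus, while the general stress genes showed no common order. The tables may have been normalized separately, so these levels are set side by side without a test. Of the 14 neuronal activity genes above the limit in both regions, 9 had all 4 hippocampal control values above all 4 hypothalamic ones, 1 had them all below, and 4 overlapped, with a median ratio of the means of 3.75. Of the 15 general stress genes, 6 were above, 3 were below and 6 overlapped, with a median ratio of 1.08. The same counts and ratio were not taken over all genes, so they describe these members only and are not read as a result about the classes. The neuronal activity genes that overlapped were Junb and, each listed at 2 loci in hippocampus, Egr1, Sik1 and Rgs2. Rgs2 overlapped through control replicate 1, at 0.583 FPKM at the locus used here and 35.97 FPKM at its other locus. Egr3, a zinc finger factor induced by synaptic activity, had the widest gap, with 25.2 ± 6.75 FPKM (SD, n = 4) in hippocampus and 1.55 ± 0.359 in hypothalamus, a ratio of 16.3. Homer1, a scaffold of the postsynaptic density whose short form is induced by activity, was at 29.4 ± 3.89 and 3.87 ± 0.867 FPKM. Gene-level values do not separate that short form from the constant long ones. Arc, which acts in the removal of glutamate receptors from synapses, was at 30.4 ± 11.2 and 4.46 ± 0.909 FPKM. Nr4a1, an orphan nuclear receptor, was at 57.3 ± 18.5 and 12.1 ± 3.14 FPKM. Fos, a partner in the AP-1 factor and the usual marker of recently active neurons, ran the other way, with 15.6 ± 4.21 FPKM in hippocampus and 36.1 ± 5.34 in hypothalamus. So did Jund, a Jun protein that cells also hold without a stimulus, with 48.98 ± 37.2 and 142.3 ± 20.4 FPKM, the highest level of any member in hypothalamus.

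**Figure D1:**
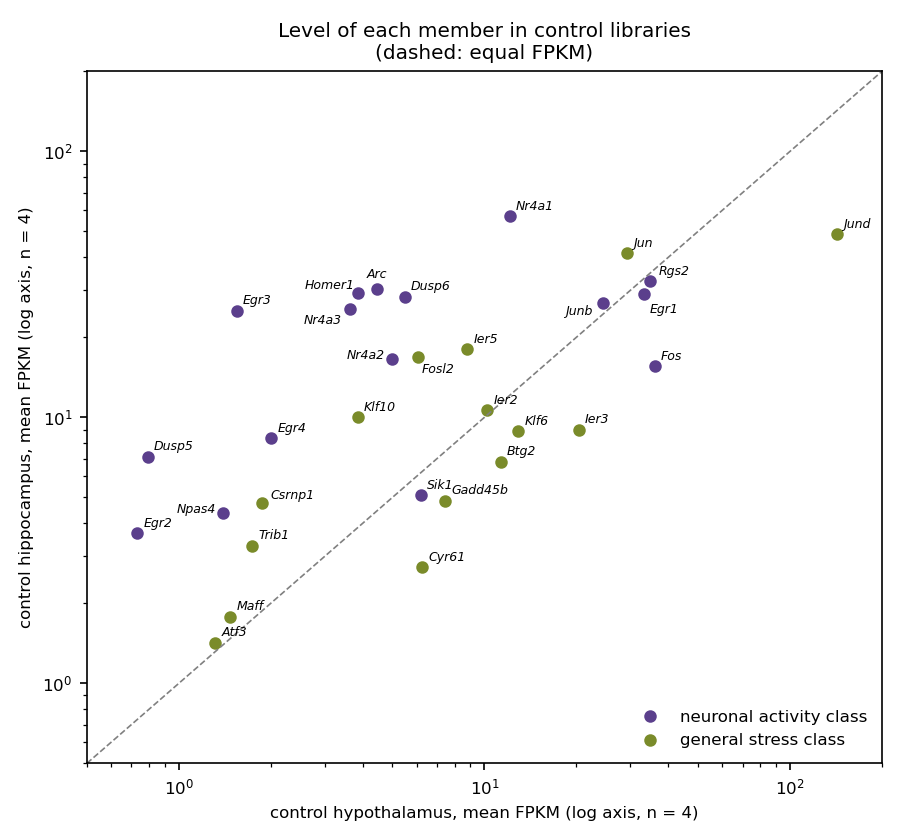
Mean FPKM of each member in the 4 control libraries of hypothalamus (horizontal, log axis) and of hippocampus (vertical, log axis), coloured by class. Egr3 lies farthest above the dashed line of equal level (25.2 against 1.55 FPKM), Fos and Jund lie below it, and Egr2 and Dusp5 are drawn although their hypothalamic means were under 1 FPKM.

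In hippocampus, no member differed between fructose and control libraries past the test. With limma, 0 of the 31 members passed an adjusted threshold of 0.05 and 0 lay under 0.05 before adjustment. Over all 11385 loci, 0 passed the adjusted threshold (0%), 38 were higher with an unadjusted p under 0.05 (0.334%) and 54 lower (0.474%). The groups separated without overlap for 0 members, against 0.255% of loci higher and 0.413% lower. Log2 fold changes were positive for 21 members and negative for 10, with a median of 0.06, while 5533 of all 11385 loci were positive, with a median of -0.0038. The neuronal activity class had 9 of 16 positive and a median of 0.06, and the general stress class 12 of 15 and a median of 0.07.

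The classic markers of neuronal activity overlapped between the groups. Fos was at 20.02, 16.0, 9.87 and 16.4 FPKM in control replicates 1 to 4 and at 15.0, 17.9, 15.0 and 10.2 FPKM in fructose replicates 1 to 4. The highest and the lowest Fos values were both in control libraries, and the log2 fold change was -0.08 ± 0.23 (SE). Npas4, a factor that neurons induce only on calcium entry, was at 7.53, 4.58, 2.64 and 2.71 FPKM in control and 4.23, 7.39, 5.80 and 2.19 FPKM in fructose libraries (0.14 ± 0.37). Each group spanned nearly the whole range of both. Nr4a1 was at 80.7, 63.0, 39.3 and 45.98 FPKM in control and at 59.3, 74.7, 75.1 and 33.1 FPKM in fructose libraries (0.06 ± 0.31). Junb, a Jun protein that dimerizes with Fos, was at 55.7, 18.9, 15.8 and 17.7 FPKM in control and 26.4, 26.2, 24.2 and 12.02 FPKM in fructose libraries (-0.13 ± 0.42). A single control library lay far above the other 3, and 3 of 4 fructose libraries lay between. Homer1 was at 23.9, 33.0, 30.0 and 30.7 FPKM in control and 21.4, 31.0, 34.4 and 45.4 FPKM in fructose libraries (0.13 ± 0.22). Both replicate 1 libraries held the lowest Homer1 value of their group.

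Arc and Egr1 are each listed at 2 loci in hippocampus, and their values are uncertain because reads could be split between the loci. At its higher locus Arc was at 46.4, 30.2, 22.8 and 22.3 FPKM in control and at 33.0, 29.9, 44.2 and 15.1 FPKM in fructose libraries (-0.03 ± 0.34). Egr1, a zinc finger factor of synaptic plasticity, was at 46.8, 24.4, 22.0 and 23.4 FPKM in control and at 33.3, 34.3, 39.7 and 20.9 FPKM in fructose libraries (0.17 ± 0.28). For both genes control replicate 1 was the highest library and fructose replicate 4 the lowest. Nr4a2, a nuclear receptor related to Nr4a1, had the smallest p of the class, at 23.1, 16.2, 12.3 and 14.7 FPKM in control and 19.8, 14.8, 20.7 and 22.2 FPKM in fructose libraries (0.23 ± 0.20, limma unadjusted p = 0.278).

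The general stress members of the hippocampus overlapped between the groups too. Klf10, a zinc finger factor induced by TGF-beta, had the smallest p of all members, at 9.13, 10.9, 9.62 and 10.4 FPKM in control and 8.27, 13.9, 12.1 and 13.5 FPKM in fructose libraries (0.21 ± 0.16, limma unadjusted p = 0.225). Fructose replicates 2 to 4 lay above every control library, and fructose replicate 1 below them. Ier3, a small protein that modulates cell death and MAP kinase signalling, was at 14.7, 3.30, 4.52 and 13.5 FPKM in control and 18.4, 24.9, 9.76 and 5.25 FPKM in fructose libraries (0.66 ± 0.57, limma unadjusted p = 0.274). It had the largest difference of any member and also one of the widest spreads. Jun, at its higher locus of 2, was at 62.2, 37.9, 32.8 and 33.0 FPKM in control and 45.0, 46.8, 53.6 and 27.9 FPKM in fructose libraries (0.07 ± 0.26). Btg2, an antiproliferative gene induced by p53 and by neuronal activity, was at 9.39, 6.20, 4.18 and 7.48 FPKM in control and 6.72, 8.90, 7.66 and 4.18 FPKM in fructose libraries (0.02 ± 0.26). For Jun and Btg2, as for Arc, the lowest fructose library was replicate 4. Klf6, a zinc finger factor of tissue injury, was at 9.43, 9.37, 7.47 and 9.34 FPKM in control and 7.49, 10.8, 7.50 and 8.38 FPKM in fructose libraries (-0.06 ± 0.14). Atf3, a stress-induced repressor, was at 2.32, 0.853, 0.827 and 1.68 FPKM in control and 1.15, 2.26, 1.02 and 1.02 FPKM in fructose libraries (-0.02 ± 0.25). Maff, a small partner of bZIP factors that act in the oxidative stress response, was at 2.74, 0.628, 0.752 and 3.01 FPKM in control and 1.57, 2.77, 1.02 and 1.65 FPKM in fructose libraries (0.07 ± 0.35). The fructose values of Maff all lay inside the control range. The remaining 16 members had log2 fold changes between -0.18 and 0.29.

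**Figure D2:**
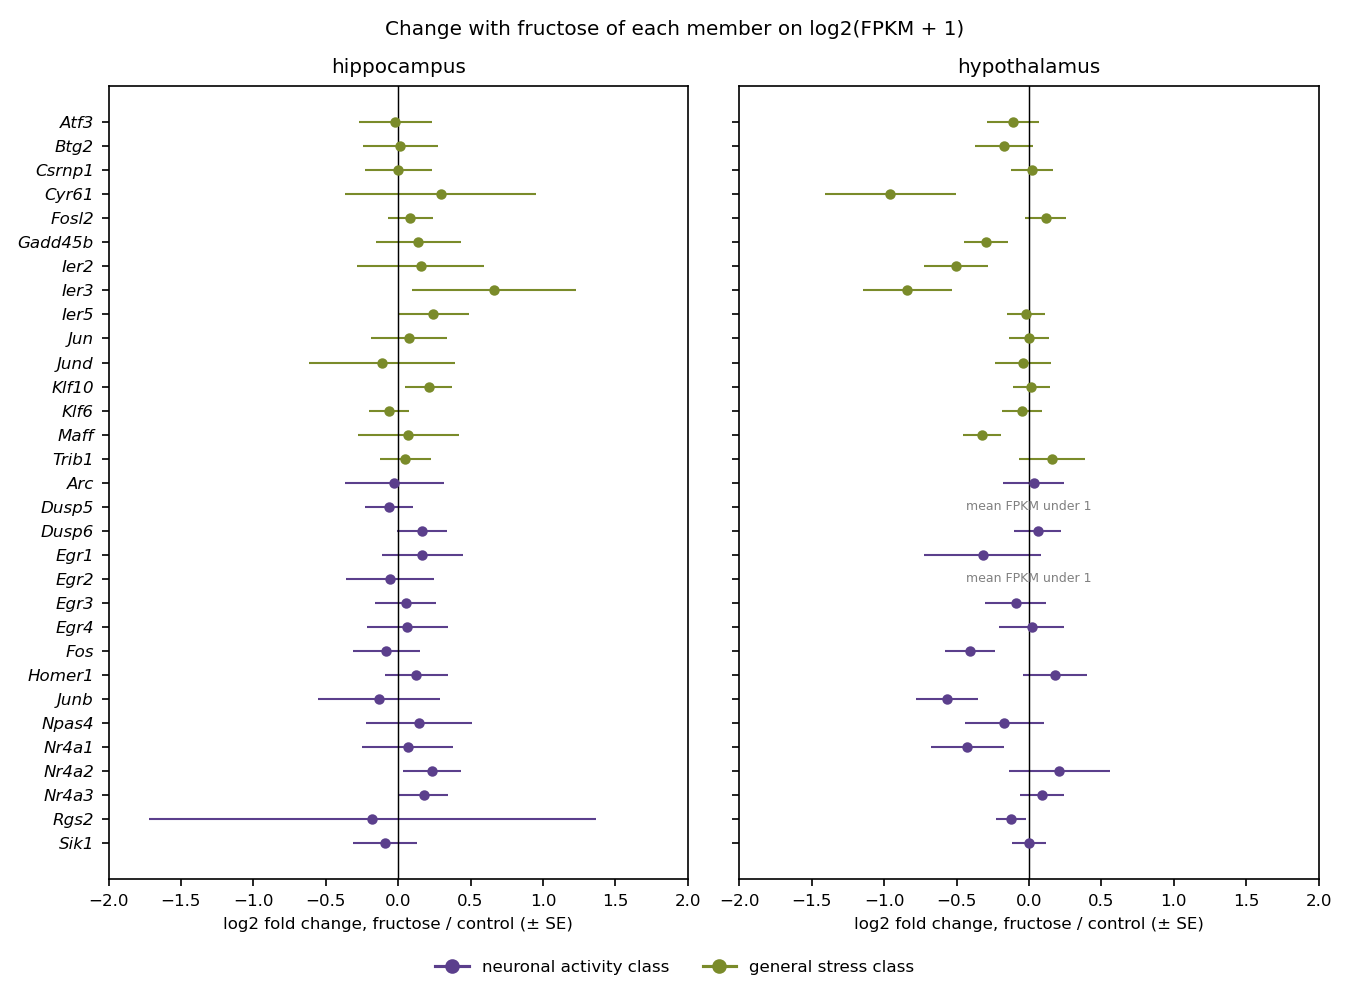
Log2 fold change of each member, fructose over control, on log2(FPKM + 1) with its standard error, in hippocampus (left) and hypothalamus (right), coloured by class. In hippocampus most bars cross 0 and that of Rgs2 is the widest, while in hypothalamus Ier3 (-0.84), Junb (-0.56), Fos (-0.41) and Maff (-0.32) lie to the left.

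The hippocampal members varied more between libraries of one group than most genes did, and they did so together. Their median SD within groups was 0.41 on the log2 scale, against 0.24 over all loci, and 20 of 31 members lay above the 75th percentile of that spread. Control replicate 1 was the highest of the 8 libraries for 15 of the 31 members and fructose replicate 2 for 7. Fructose replicate 4 was the lowest for 10 members and control replicate 3 for 9. How often each library was highest or lowest over all loci was not counted. The members' median log2 deviation was 0.45 in control replicate 1, 0.27 in fructose replicate 2, -0.33 in fructose replicate 4 and -0.34 in control replicate 3. Over all loci these medians were -0.06, -0.01, 0.04 and 0.04. So each group held a library with high and a library with low values of these genes. The direction of the members' median log2 fold change rested on these libraries. This median was -0.06 without fructose replicate 2, with 11 of 31 positive, and -0.04 without control replicate 3, also with 11 of 31 positive. It was 0.17 without control replicate 1, with 28 of 31 positive, and 0.15 without fructose replicate 4, with 26 of 31 positive. At an unadjusted p under 0.05, 2 members were higher without control replicate 1 (Nr4a2 and Ier5), 1 without control replicate 2 (Nr4a3) and 1 without fructose replicate 1 (Klf10), where 0.579%, 0.184% and 0.492% of all loci were higher, and 0 members were lower without any single library. In hypothalamus the members' median SD was 0.27, against 0.25 over all loci, and 5 of 29 lay above the 75th percentile.

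**Figure D3:**
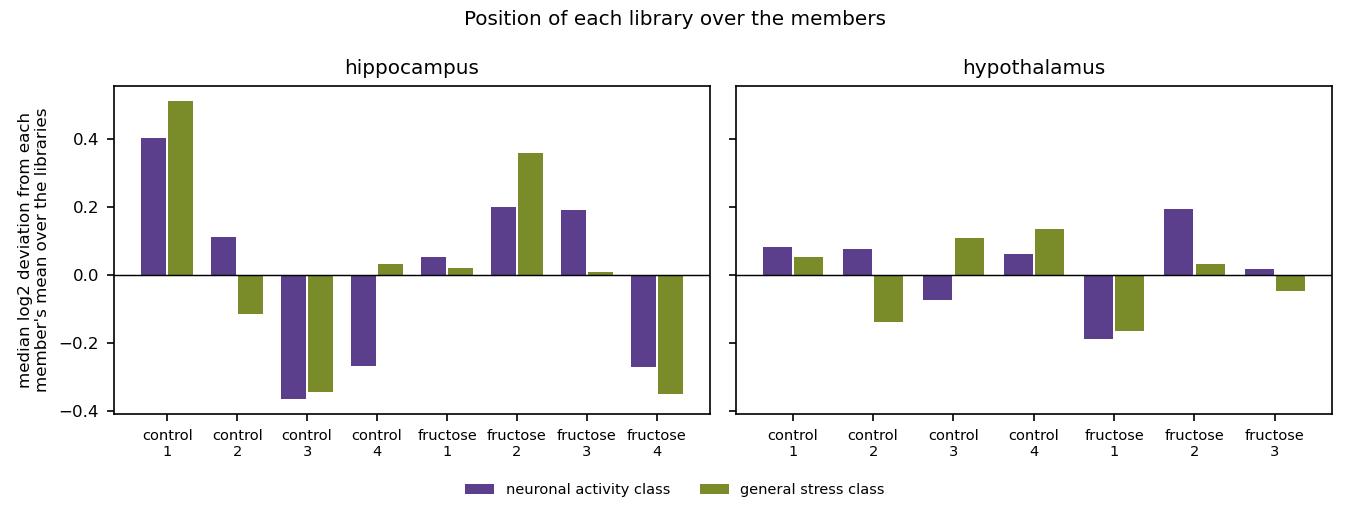
Median log2 deviation of each library from each member's mean over the libraries of its region, for the 2 classes, in hippocampus (left) and hypothalamus (right). In hippocampus control replicate 1 and fructose replicate 2 lie above 0 and control replicate 3 and fructose replicate 4 below it in both classes, and in hypothalamus fructose replicate 1 is the lowest.

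Without both replicate 1 libraries, the hippocampal comparison of 3 against 3 moved toward higher values in fructose for both classes. The members' median log2 fold change was 0.22, with 28 of 31 positive, beside 5455 of 11372 loci and a median of -0.01 over all loci. The neuronal activity class had 13 of 16 positive and a median of 0.20, and the general stress class 15 of 15 and a median of 0.25. Klf10 was then the 1 member with an unadjusted p under 0.05 (0.32 ± 0.12, limma unadjusted p = 0.0312, adjusted p = 0.99997), against 0.607% of all loci higher and 0.73% lower at that level. Ier3 was at 0.78 ± 0.61, Npas4 at 0.42 ± 0.37 and Egr1 at 0.38 ± 0.23, none with an unadjusted p under 0.05. In these 6 libraries the summed level of 13 meningeal fibroblast markers was 62.0, 50.6 and 486.5 FPKM in control and 729.5, 195.8 and 290.7 FPKM in fructose, and that of 10 mural markers 156.5, 201.2 and 1706 FPKM against 1181, 782.2 and 366.3 FPKM. In the same fit all 5 tested markers each of oligodendrocytes, ependyma, astrocytes and microglia were negative, with medians of -0.27, -0.50, -0.10 and -0.09. All 5 choroid plexus and 6 of 7 endothelial markers were positive, with medians of 0.06 and 0.15, and 4 of 8 neuronal ones. The part of these cells in the members' values was not tested, and in bulk tissue fewer cells of a type and less RNA per cell cannot be told apart.

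The replicate 1 libraries also differed in how reads were given to loci that share a symbol. In hippocampus 5 members are listed at 2 loci, and for 3 of them, Egr1, Rgs2 and Sik1, one locus was more than 10 times lower in both replicate 1 libraries than in every other library. The lower locus of Egr1 was at 0.0819 and 0.00363 FPKM in control and fructose replicate 1 and at 3.37 to 19.0 FPKM in the other libraries. Rgs2, which shortens G protein signals, was at 0.583 and 0 FPKM at its higher locus, and at 38.9 to 46.9 FPKM in the other 6 libraries. At its other locus the same 2 libraries were the highest, at 35.97 and 36.4 FPKM against 19.7 to 29.6 FPKM. The kinase Sik1, which restrains CREB, was at 0.123 and 0.244 FPKM at one locus, against 2.87 to 6.44 in the others. The lower locus of Arc also had its lowest values there, at 0.745 and 1.14 FPKM against 5.45 to 25.0. The pattern extended beyond these genes. Of 2149 tested loci of symbols with several loci, 370 (17.2%) were lower by that factor in both replicate 1 libraries, against 12 of 9236 loci (0.13%) of symbols with 1 locus. In hypothalamus the same counts were 210 of 1747 (12%) and 17 of 9751 (0.174%).

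For Rgs2 the split decided the value. At its higher locus the log2 fold change was -0.18 ± 1.54, and it was -1.38 without control replicate 1 and 1.18 without fructose replicate 1. With the loci of a symbol summed it was 0.01 ± 0.26. Summed values were 0.04 ± 0.20 for Egr1, 0.07 ± 0.28 for Arc and 0.06 ± 0.22 for Jun. For Sik1 the summed value was -0.29 ± 0.13 (limma unadjusted p = 0.0498, adjusted p = 0.9998), against -0.09 ± 0.22 at its higher locus.

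**Figure D4:**
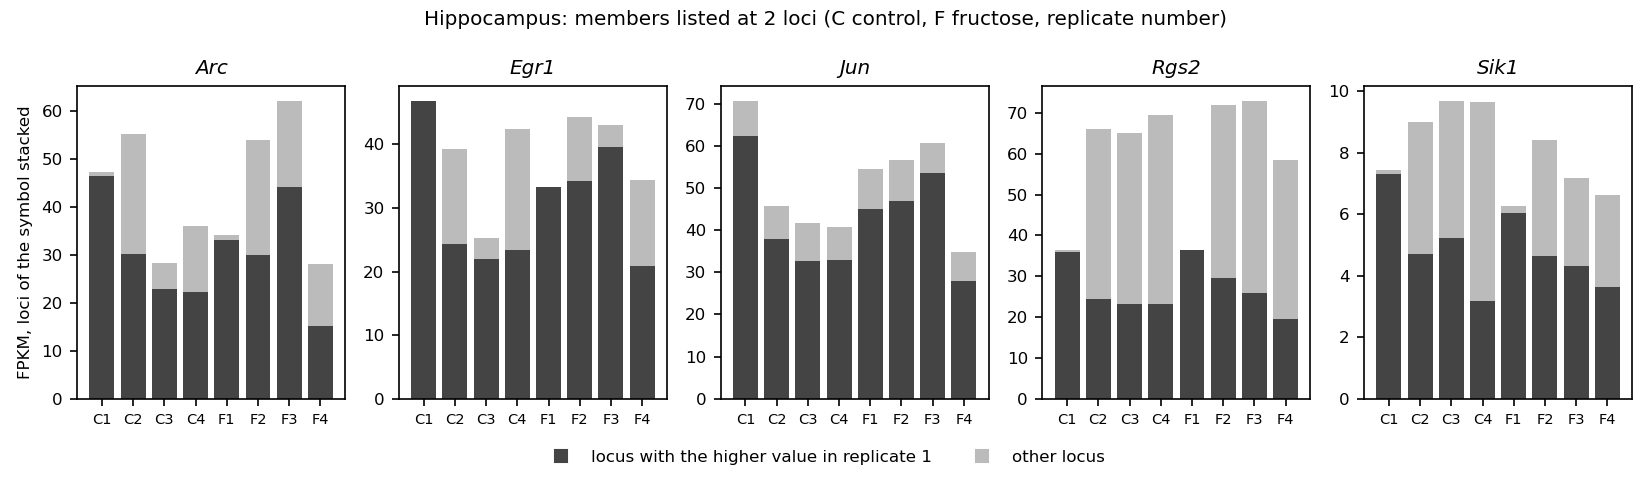
FPKM of the 5 hippocampal members listed at 2 loci, with the loci stacked, in control (C) and fructose (F) replicates 1 to 4. The grey part is smallest in C1 and F1 for Arc, Egr1, Rgs2 and Sik1, and the Rgs2 locus in grey is at 38.9 to 46.9 FPKM in the other libraries.

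In hypothalamus, the lowest p-values among the members all belonged to genes with lower levels after fructose: Ier3, Junb, Maff and Fos. No member passed the test. Of the 29 members 0 had a limma adjusted p under 0.05, against 1 of 11498 loci (0.0087%), which is not a member. At an unadjusted p under 0.05, 4 members were lower and 0 higher, against 2.12% of loci lower and 1.02% higher. The groups separated without overlap for 2 members, both lower, against 1.58% of loci lower and 1.75% higher. Maff, which is in each of these counts, passed the limit of 1 FPKM only through its control libraries. Log2 fold changes were positive for 12 members and negative for 17, with a median of -0.05, beside 5927 of 11498 positive and a median of 0.01 over all loci.

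Of the neuronal activity class, Fos was at 29.3, 36.5, 42.4 and 36.2 FPKM in control replicates 1 to 4 and at 24.4, 33.0 and 23.6 FPKM in fructose replicates 1 to 3. Fructose replicate 2 lay within the control range and the other 2 below it. The log2 fold change was -0.41 ± 0.17 (limma unadjusted p = 0.0479, adjusted p = 0.9998). Junb, whose promoter holds 1 TGACG and a TATAAA, was at 26.6, 21.1, 26.9 and 23.0 FPKM in control and at 12.8, 23.2 and 13.9 FPKM in fructose libraries. Here too fructose replicate 2 stood among the control values (-0.56 ± 0.21, limma unadjusted p = 0.0317, adjusted p = 0.9998). Nr4a1 was at 10.3, 16.8, 10.5 and 10.7 FPKM in control and at 6.41, 12.3 and 7.83 FPKM in fructose libraries (-0.43 ± 0.25, limma unadjusted p = 0.130). Fructose replicates 1 and 3 were below all controls and replicate 2 above 3 of them.

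Arc, Npas4, Homer1, Egr1 and Nr4a2 also overlapped between the groups. Arc was at 5.13, 5.28, 3.37 and 4.05 FPKM in control and 3.28, 5.93 and 4.67 FPKM in fructose libraries (0.03 ± 0.21). Npas4 was at 1.87, 1.28, 1.06 and 1.36 FPKM in control and 1.25, 2.04 and 0.370 FPKM in fructose libraries (-0.17 ± 0.27). Its highest and its lowest value were both in fructose libraries. Homer1 was at 5.16, 3.36, 3.56 and 3.39 FPKM in control and 6.06, 4.60 and 3.12 FPKM in fructose libraries (0.18 ± 0.22). Egr1 was at 17.7, 40.1, 32.2 and 42.8 FPKM in control and 13.5, 33.5 and 34.2 FPKM in fructose libraries (-0.32 ± 0.41), and in both groups replicate 1 was far below the rest. Nr4a2 was at 3.07, 10.0, 3.45 and 3.39 FPKM in control and 4.66, 5.92 and 5.35 FPKM in fructose libraries (0.21 ± 0.35). Nr4a3, singled out after its values were seen, was at 4.64 FPKM in control replicate 2 and at 3.22 to 3.36 in the other controls. The 3 Nr4a receptors thus shared their highest control library.

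**Figure D5:**
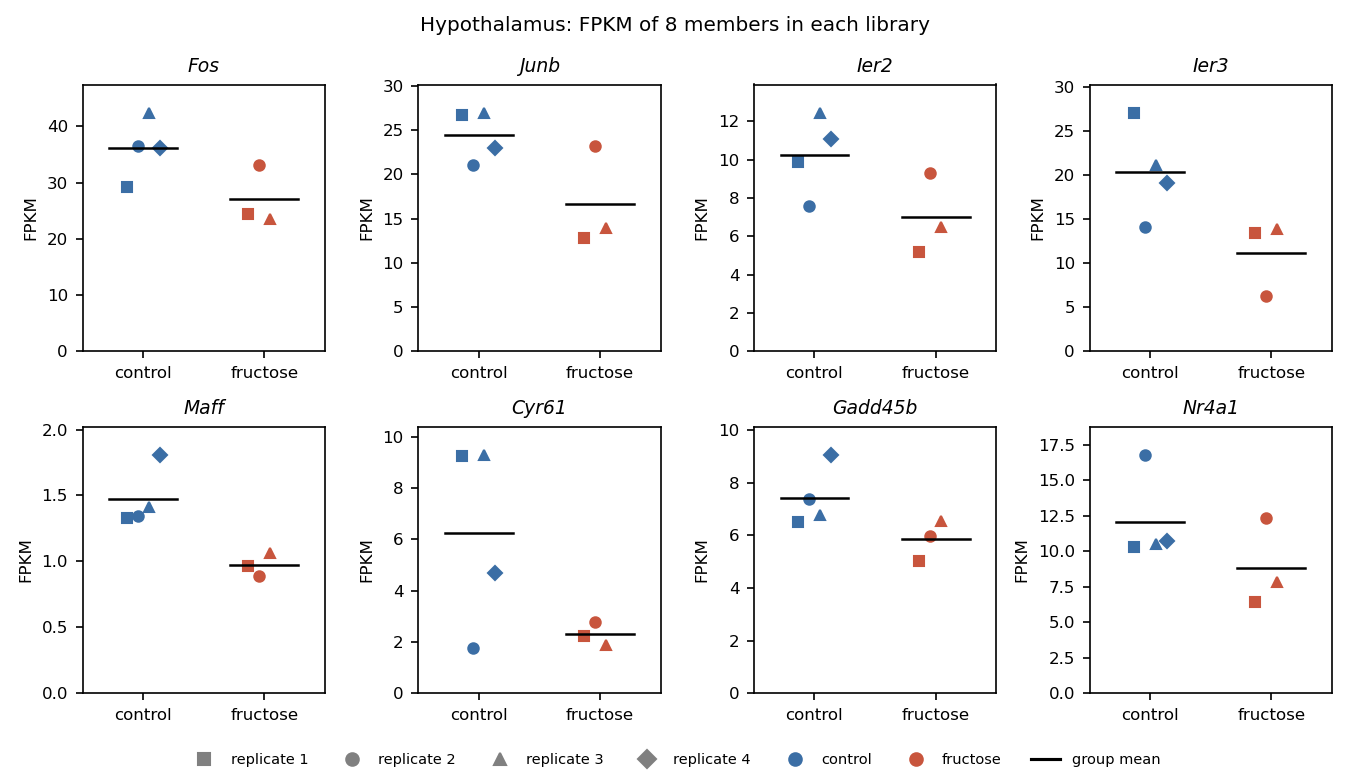
FPKM of 8 members in each hypothalamus library, control (blue) and fructose (red), with replicate numbers as symbols and the group mean as a line. The groups do not overlap for Ier3 and Maff, and for Fos, Junb, Ier2 and Nr4a1 the fructose replicate 2 library (circle) lies among the controls.

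Of the general stress class, Ier3 was at 27.1, 14.1, 21.2 and 19.1 FPKM in control and at 13.5, 6.31 and 13.9 FPKM in fructose libraries. All fructose libraries were below all controls, by a narrow gap between 13.9 and 14.1 FPKM, and the log2 fold change was -0.84 ± 0.31 (limma unadjusted p = 0.0271, adjusted p = 0.9998). Maff, whose promoter holds the whole cAMP response element, was at 1.33, 1.35, 1.42 and 1.81 FPKM in control and at 0.964, 0.887 and 1.07 FPKM in fructose libraries. Its groups also did not overlap (-0.32 ± 0.13, limma unadjusted p = 0.0390, adjusted p = 0.9998). Its mean passed the limit of 1 FPKM only through the control libraries, which averaged 1.47 FPKM. The separation of Maff is therefore not read as a result. Ier2, an early response gene with the same element, had -0.50 ± 0.22 (limma unadjusted p = 0.0550), Cyr61, a secreted matrix protein, -0.96 ± 0.45 (0.0694) and the stress-induced Gadd45b -0.30 ± 0.15 (0.0904). These 3 were singled out after their values were seen. Jund and Btg2, whose promoters also hold the whole element, had -0.04 ± 0.19 and -0.17 ± 0.20. A relation between the element and the change was not tested. For Cyr61 control replicate 2, at 1.77 FPKM, was the lowest library of all, while the other controls were at 4.70 to 9.29 and the fructose libraries at 1.91 to 2.80 FPKM.

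The remaining general stress genes with values in every library overlapped between the groups. Btg2 was at 13.6, 9.004, 12.1 and 10.5 FPKM in control and 9.34, 12.8 and 7.86 FPKM in fructose libraries (-0.17 ± 0.20). Jun, at its higher locus of 2, was at 30.0, 29.9, 27.9 and 29.5 FPKM in control and 28.6, 35.4 and 24.8 FPKM in fructose libraries (0.00 ± 0.14). The fructose values of Jun enclosed the control values. Klf6 was at 14.1, 11.4, 12.5 and 13.5 FPKM in control and 13.7, 12.97 and 10.5 FPKM in fructose libraries (-0.05 ± 0.14), and Atf3 at 1.33, 0.737, 1.76 and 1.42 FPKM against 1.04, 1.16 and 1.14 FPKM (-0.11 ± 0.18). Klf10, which had the smallest p in hippocampus, was at 3.49, 3.60, 4.25 and 4.07 FPKM in control and 4.15, 3.44 and 4.13 FPKM in fructose libraries (0.01 ± 0.13). The other members had log2 fold changes between -0.12 (Rgs2) and 0.16 (Trib1).

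As classes, the neuronal activity genes had 7 of 14 positive and a median of -0.05, and the general stress genes 5 of 15 and a median of -0.05. When Fos, Junb, Egr1, Egr2, Nr4a1, Dusp5, Dusp6, Sik1 and Rgs2, which many cell types induce, were moved to the general class, the 7 remaining neuronal genes had a median of 0.03 with 5 positive and the general class of 22 a median of -0.12 with 7 positive. In hippocampus this narrow split gave medians of 0.13 (6 of 7 positive) and 0.06 (15 of 24).

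The unadjusted p-values of the 4 hypothalamic genes depended on single libraries, while their log2 fold changes stayed negative without any 1 of the 7. They ranged from -0.56 to -0.32 for Fos, from -0.82 to -0.41 for Junb, from -0.36 to -0.26 for Maff and from -1.02 to -0.51 for Ier3, whose smallest value was without fructose replicate 2. Without both replicate 1 libraries (3 against 2) Ier3 had -0.86 ± 0.32 (limma unadjusted p = 0.0322, adjusted p = 0.501) and Fos -0.44 ± 0.17 (0.0356, 0.511), while Junb (-0.37 ± 0.22) and Maff (-0.35 ± 0.17) had unadjusted p-values of 0.145 and 0.0837. The members' median was then -0.05, with 14 of 29 positive. The neuronal activity class turned from a median of -0.05 to 0.07, with 8 of 14 positive, while the general stress class had 6 of 15 positive and a median of -0.06. In that fit 2 members were lower and 0 higher at an unadjusted p under 0.05, against 4.53% of all loci lower and 4.75% higher. Leaving out single libraries left 0 members lower at an unadjusted p under 0.05 without control replicate 3 and 1, Ier3, without control replicate 4, fructose replicate 1 or fructose replicate 3. There were 2 without control replicate 1 (Fos and Maff), 4 without control replicate 2 (Junb, Ier2, Ier3 and Cyr61) and 4 without fructose replicate 2 (Fos, Junb, Nr4a1 and Ier2). Over these fits 0.904% to 3.24% of all loci were lower at this level. A single member was higher without control replicate 2, Nr4a2 (0.55, limma unadjusted p = 0.00845), and without fructose replicate 1, Trib1 (0.42, limma unadjusted p = 0.0390). In those fits 0.557% and 2.77% of all loci were higher at this level. With the replicate number as a block 4 members were lower at this level, against 4.32% of all loci, and 0 were higher, against 2.28%. The lower ones were Ier3 (-0.86 ± 0.13, limma unadjusted p = 0.000538, adjusted p = 0.217), Nr4a1 (-0.47 ± 0.11, 0.00527), Fos and Junb. Control replicate 4 has no fructose library of its number, so the change in this fit came from replicates 1 to 3 only. Fructose replicate 1 was the lowest of the 7 libraries for 11 of the 29 members. Its median log2 deviation was -0.16 over the members and 0.02 over all loci, where the lowest libraries were not counted.

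Marker genes of several other cell types had a negative median change with fructose in hypothalamus for meninges and vessel walls, and a positive median for ependyma. Of these markers 0 passed the adjusted threshold, with a lowest limma adjusted p of 0.9998. The summed level of 13 meningeal fibroblast markers was 303.9, 249.4, 357.2 and 473.3 FPKM in control and 120.9, 49.8 and 253.3 FPKM in fructose libraries. These sums overlapped between the groups. The log2 fold change was negative for all 12 tested, with a median of -1.50, and 9 had an unadjusted p under 0.05. Col1a2 was below 0.1 FPKM in all 15 libraries. The 10 mural markers summed to 537.9, 367.8, 734.5 and 710.3 FPKM in control and 292.8, 246.6 and 449.0 FPKM in fructose libraries, with 7 of 10 negative and a median of -0.59. The mural sums overlapped between the groups too. Fructose replicate 2, the library with the fewest meningeal and mural transcripts, was the lowest for Ier3 but among the controls for Fos and Junb. Of 8 endothelial markers tested 7 were negative, with a median of -0.24, and 1 had an unadjusted p under 0.05. The ependymal markers summed to 43.4 to 63.0 FPKM in control and 67.96 to 80.1 FPKM in fructose libraries, without overlap, and 4 of 5 tested were positive, with a median of 0.66 and 3 at an unadjusted p under 0.05. Of 5 astrocyte markers 4 were positive, with a median of 0.23 and 0 at that level. The 8 neuronal markers summed to 1515 to 1978 FPKM in control and 1614 to 1736 FPKM in fructose libraries. In hippocampus the meningeal markers went the other way, with 12 of 12 positive and a median of 0.92, and there Ier3 also had its positive value. The part of these cell types in the members' differences was not tested.

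No member's fructose difference differed between the regions past the test, and Ier3 came closest. The difference between regions (hypothalamus minus hippocampus) was tested as an interaction over 9931 symbols, of which 0 passed (0%) and 229 (2.31%) had an unadjusted p under 0.05. Of 29 members 0 passed and 1 had an unadjusted p under 0.05. For Ier3 the difference was -1.50 ± 0.69 (limma unadjusted p = 0.0470, adjusted p = 0.9999), from 0.66 in hippocampus and -0.84 in hypothalamus. The number of members at this level was 0 to 4 when single libraries were left out, and 0 with the replicate number as a block. These counts have no share of all symbols beside them and are not read as a result about the members.

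A separate list of 25 activity-induced genes outside the members was read as late-response and feedback genes. Whether each of them follows the transcription factors or is itself an early gene was not tested, so the list is not a reading of a later wave alone. In hippocampus 20 were tested, of which 14 were positive, with a median of 0.08, and 0 passed the adjusted threshold. Nptx2, a secreted pentraxin that clusters AMPA receptors, averaged 21.1 ± 2.51 FPKM in control and 16.1 ± 2.65 in fructose libraries (both SD, n = 4), a log2 fold change of -0.37 ± 0.14 (limma unadjusted p = 0.0269, adjusted p = 0.9999). Next by p came the cyclooxygenase Ptgs2 (0.51 ± 0.30), the GTPase Gem (-0.39 ± 0.28) and Rgs4, a brake on G protein signals (0.34 ± 0.28). Ptgs2 and Rgs4 are each listed at 2 loci in hippocampus and were read at the higher, so their values are uncertain. The neurotrophin Bdnf was at 10.4 ± 2.47 and 11.4 ± 3.74 FPKM in hippocampus and at 5.31 ± 1.31 and 5.50 ± 1.85 FPKM (n = 3) in hypothalamus. In hypothalamus 21 were tested, with 8 positive, a median of -0.02 and 0 past the adjusted threshold. Dusp1, a phosphatase that switches off MAP kinases and is also induced by glucocorticoids, was at 19.7, 26.7, 26.5 and 26.1 FPKM in control and 9.07, 20.3 and 13.2 FPKM in fructose libraries. Fructose replicate 2 lay within the control range, the same library as for Fos and Junb (-0.82 ± 0.25, limma unadjusted p = 0.0134, adjusted p = 0.9998). Zfp36, which speeds the decay of inflammatory transcripts, had -0.97 ± 0.44, the kinase Sgk1 -0.69 ± 0.35 and Rgs4 0.27 ± 0.15.

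The 30 kinases, channels and transcription factors that act before the members gave no call in either region. In hippocampus 14 of 25 tested were positive, with a median of 0.05, and in hypothalamus 17 of 25, with a median of 0.06, and 0 had an unadjusted p under 0.05 in either. Without both replicate 1 libraries 2 were higher at that level in hypothalamus, the lowest limma adjusted p being 0.451, and 0 in hippocampus. Creb1, the CREB factor, was at 1.86 ± 0.302 and 2.34 ± 0.157 FPKM in control and fructose hippocampus, at the higher of 2 loci (0.23 ± 0.12, limma unadjusted p = 0.0948). In hypothalamus it was at 3.11 ± 0.688 and 4.05 ± 0.370 FPKM (0.31 ± 0.16, limma unadjusted p = 0.0957). Also named by p were the calcium-dependent kinases Camk4 (0.25 ± 0.21) and Camk2d (0.21 ± 0.21) in hippocampus, and in hypothalamus the CREB coactivator Crtc1, at the higher of 2 loci (0.30 ± 0.16). The ribosomal S6 kinase Rps6ka2, which phosphorylates CREB, had 0.10 ± 0.10 in hippocampus, at the higher of 2 loci, and 0.21 ± 0.16 in hypothalamus.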

How the data were processed

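Per the labels' protocols, total RNA was enriched for poly-A RNA, copied from random primers, and sequenced on an Illumina instrument. The authors deposited FPKM values per locus with a status flag for each library; among the tools in the submitters' processing notes are TopHat and TopHat2, Bowtie and Bowtie2, Cufflinks and Cuffdiff, and the build is rn5. Versions and the strand setting are not given in the sources used here. Flags other than OK touched 117 and 36 loci and 0 members.

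Loci with a mean of at least 1 FPKM were tested in R 4.3.3 by limma 3.58.1 on the scale log2(FPKM + 1) (moderated test with trend, group only, Benjamini-Hochberg over all loci at 0.05), after the script was tested on simulated data. Fold changes on this scale understate low genes. Errors are SD for FPKM and SE for log2 fold changes. Low values fell in steps in replicates 2 to 4 but not in replicate 1, so no reads were recovered. With all libraries, same-numbered ones deviated together (r = 0.892, 0.208, 0.481 and 0.410 in hippocampus, 0.848, 0.488 and 0.456 in hypothalamus). Each comparison was therefore also fitted with a replicate block. Without replicate 1 the values of the other numbers were all lower, at -0.226, 0.404 and 0.0882, and 0.269 and 0.0364. The joint deviation of those other numbers thus rested in part on replicate 1.

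Members, classes and lists were chosen with earlier results of these data known. Every library value is given for Fos, Arc, Egr1, Npas4, Junb, Nr4a1, Homer1, Btg2, Jun, Atf3 and Klf6, for members with an unadjusted p under 0.05 in either region and for the 3 smallest p of each. A gene of the upstream list is not reported here. Figures used matplotlib 3.10.9.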

Additional observations from a re-analysis of the deposited data

Results flagged for a closer look

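Single libraries were marked in groups of 4. The mark was set where the gap to the nearest other library, as a share of the group's range, exceeded Dixon's 95% critical value. For normal and independent values chance marks about 1 in 20 groups. Of 91 groups of member and arm, 13 were marked, 6 of them by a replicate 1 library. The members vary together and no share over all loci stands beside these counts, so they are not a result about the members. In hippocampus control replicate 1 stood alone for Junb (55.7 FPKM, nearest library 18.9, gap 0.922 of the range), Jund (104.6, nearest 32.9, gap 0.909) and Egr1 (46.8, nearest 24.4, gap 0.903), and at the low end for Rgs2 (0.583, nearest 41.7, gap 0.900), a gene listed at 2 loci.

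In the same region Junb was low in fructose replicate 4 (12.02, nearest 24.2, gap 0.850), Klf6 low in control replicate 3 (7.47, nearest 9.34, gap 0.956) and Atf3 high in fructose replicate 2 (2.26, nearest 1.15, gap 0.897). In hypothalamus control replicate 2 was high for all 3 Nr4a receptors: Nr4a1 (16.8, nearest 10.7, gap 0.932), Nr4a2 (10.0, nearest 3.45, gap 0.946) and Nr4a3 (4.64, nearest 3.36, gap 0.903). It was low for Rgs2 (33.1, nearest 35.4, gap 0.858). Control replicate 1 was high for Fosl2 (7.45, nearest 5.66, gap 0.942) and Homer1 (5.16, nearest 3.56, gap 0.888).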

How the results depend on the processing

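No member passed an adjusted p of 0.05 in any alternative run: the lowest limma adjusted p was 0.851 over 550 values of 31 genes in hippocampus and 0.120 over 481 values of 29 genes in hypothalamus. A change of sign was counted only for members whose log2 fold change exceeded its SE, and 0 of these turned. The count of all loci called ranged from 0 to 1 in hippocampus when single libraries were left out (1 without control replicate 3), from 0 to 2 in hypothalamus, where it was also 0 at a mean FPKM of at least 5 and 2 without both replicate 1 libraries, and from 0 to 1 for the difference between regions (1 without hypothalamus control replicate 3). With the replicate number as a block it was 0 in hippocampus and 2 in hypothalamus; the block changed no call of a member. The neuronal activity median in hypothalamus was -0.22 at a mean FPKM of at least 5, where fewer genes remain. With array weights the members' medians were 0.30 and 0.03. Loci with an unadjusted p under 0.05 numbered 92 in hippocampus (42 to 658 over the alternatives, the highest with array weights) and 361 in hypothalamus (146 to 2099, likewise). The cause of these changes was not tested. Depth in reads is unknown, so no counting error can be given, and members near 1 FPKM, such as Maff and Atf3, are the least precise.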
